A study of Mus musculus with 8 samples.

Results

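Transcripts of 10 retinoid genes were followed in kidneys of E14.5 mouse embryos. They are the retinoic acid receptors Rara, Rarb and Rarg, the retinoid X receptors Rxra and Rxrb, the retinaldehyde dehydrogenases Aldh1a1, Aldh1a2 and Aldh1a3, the retinoic acid hydroxylase Cyp26b1 and the cellular retinoic acid-binding protein gene Crabp2. The genes were chosen by name among 21291 gene rows, and all 10 were present and abundant enough to be tested. The 4 mutant libraries came from embryos with both Etv4 copies null (Etv4-/-), and the 4 control libraries from embryos with 1 null copy (Etv4+/-). Both groups carried Six2-GFPcre tg/+, whose Six2 promoter directs Cre to the nephron progenitors, together with Etv5fl/fl, so the floxed gene and the Cre are shared and the labels set the genotypes apart at Etv4 alone. Nothing in the labels limits the Etv4 null allele to nephron progenitors. Each library is the polyadenylated RNA of both kidneys of an embryo, and the controls are described as littermates.

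Retinoic acid is made from vitamin A in a pair of oxidations: retinol dehydrogenases such as RDH10 give retinaldehyde, and the ALDH1A enzymes turn it irreversibly into retinoic acid. CRABP2 carries the acid to the nucleus, where RARs paired with RXRs bind direct repeats in DNA and recruit coactivators or corepressors, and CYP26 enzymes break the acid down. In the developing mouse kidney, ALDH1A2 in the stroma is a main source of the acid, and RARA and RARB in the ureteric bud are needed for expression of Ret, the receptor that drives branching.

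The receptors' own binding element could be read in the promoter of a member. The windows shown run from 250 bases before to 50 bases after a transcription start of the gene annotated in RefSeq ( build GRCm38.p6, strand of the gene), and capitals mark direct repeats with a gap of 5 bases, searched on both strands with the hexamers AGGTCA and its close relative GGGTCA as well as AGTTCA and its close relative GGTTCA. Rarb is shown because it is the member with a match, and Cyp26a1, a second retinoic acid hydroxylase, because it is the other pathway gene with a match of that spacing. The Rarb window is chr14:16575427-16575726, minus strand, at a start inside the span that GENCODE gives the gene, and the Cyp26a1 window chr19:37697558-37697857, plus strand.
Rarb: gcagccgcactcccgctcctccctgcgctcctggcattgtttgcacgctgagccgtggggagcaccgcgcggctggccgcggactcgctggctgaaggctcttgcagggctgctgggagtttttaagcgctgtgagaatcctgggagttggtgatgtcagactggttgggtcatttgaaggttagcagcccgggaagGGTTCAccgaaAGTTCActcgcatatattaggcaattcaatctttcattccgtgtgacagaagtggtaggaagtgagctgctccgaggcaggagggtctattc
Cyp26a1: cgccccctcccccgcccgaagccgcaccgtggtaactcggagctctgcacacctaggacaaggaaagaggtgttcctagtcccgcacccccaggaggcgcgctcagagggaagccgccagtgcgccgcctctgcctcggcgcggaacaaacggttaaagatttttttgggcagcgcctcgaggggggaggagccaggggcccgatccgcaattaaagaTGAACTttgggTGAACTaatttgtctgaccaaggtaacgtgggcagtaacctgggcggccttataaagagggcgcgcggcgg
Read 5′ to 3′ along the strand on which the hexamers match, the repeats are as follows.
Rarb repeat: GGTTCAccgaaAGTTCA
Cyp26a1 repeat: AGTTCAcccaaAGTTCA
The Rarb repeat lies 53 to 37 bases upstream of the start on the strand of the gene, and the Cyp26a1 repeat 32 to 16 bases upstream on the opposite strand. Such a repeat with a gap of 5 was present in 32 of 32851 promoter windows of the same length in mouse (0.0974%), in 1 of 15 windows of the 8 members with a window, and in 1 of 39 windows of 27 other pathway genes. The same hexamers with gaps of 1 or 2 bases were in 0.222% and 0.268% of all windows and in 0 member windows. The ETS-type sequence CCGGAAGT, also searched on both strands, was in 3.89% of all windows and in 0 member windows. Of the 39 windows of other pathway genes, 1 held the repeat with a gap of 1 (Bco1), 0 that with a gap of 2, and 1 held CCGGAAGT (Meis1). A match is a run of letters and not a measured site, and a missing match says only that these letters are not in these windows.

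Libraries held 35308934 to 38824018 estimated counts in mutants and 15515139 to 39548327 in controls. Control 4 was the shallowest, with 18.4% of its counts from Lars2, a mitochondrial leucyl-tRNA synthetase gene, against at most 0.476% in the other 7. Values below are scaled counts, the estimated counts of a library divided by its size factor. Etv4 had 164 to 294 scaled counts in mutants and 2311 to 2816 in controls (limma log2 fold change −3.51, SE 0.18, adjusted p = 2.62e-05). Etv5, floxed in both groups, was also lower in mutants without overlap, at 1487 to 2657 scaled counts against 3006 to 4085 in controls. Its limma log2 fold change was −0.79 (SE 0.175, adjusted p = 0.106), and the cause was not tested. The Y-linked Ddx3y was listed at 0 in every mutant and at 1553 to 1629 scaled counts in every control, so that sex and genotype cannot be told apart in any value below. Six2, a defining gene of nephron progenitors, was detected in all 8 libraries. Summed markers of adrenal cortex (178 to 301 scaled counts in mutants, 223 to 395 in controls), gonad (58.0 to 197 and 130 to 246) and sympathetic cells (14.7 to 41.3 and 21.4 to 113) were low. Foxl2, an ovarian gene, was at 0 in 7 of 8 libraries and at 2.45 in mutant 1.

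Rara, a retinoic acid receptor gene, and Aldh1a2, the main synthesis gene, were lower in every mutant than in any control, at 71.5% and 72.7% of the control means, and the other 8 genes overlapped between groups. These values cannot tell fewer cells of a type from less RNA per cell in bulk kidneys. With limma over all 14974 genes tested, 0 of the 10 passed an adjusted p of 0.05, where 0.301% of all genes did (0.220% lower and 0.0801% higher in mutants), and 3 of the 10 had an unadjusted p below 0.05, all lower in mutants, against 12.0% of all genes. The 2 genes whose groups did not overlap, Rara and Aldh1a2, were both lower in mutants, where 4.43% of all genes were lower and 4.17% higher without overlap, 8.60% in all. The median log2 fold change was −0.06 over the 10 genes and 0.01 over all genes tested, with 5 of the 10 negative and 5 positive. By limma voom 0 of the 10 passed (0.461% of all genes), and by voom with library weights 2 did, Rara and Aldh1a2 (3.83% of all genes).

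**Figure D1:**
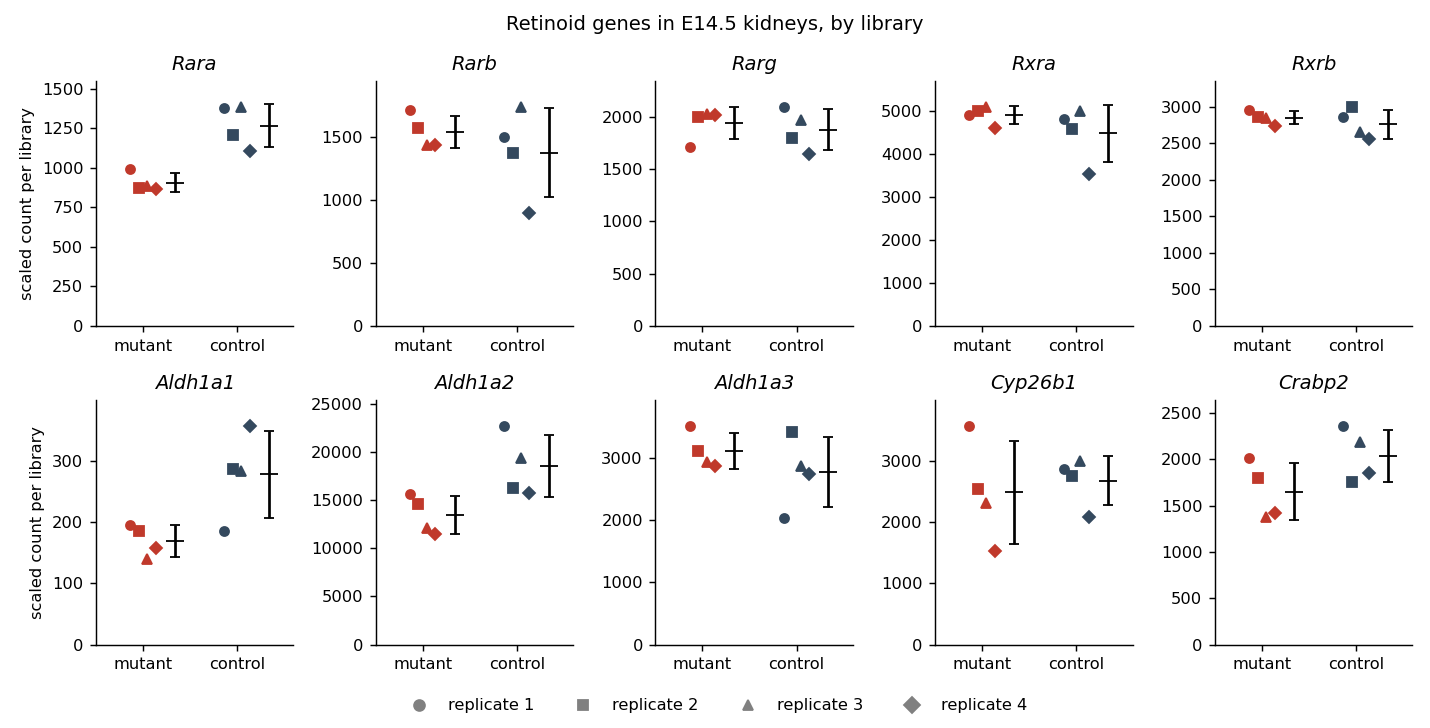
Scaled counts of each retinoid gene in every library (vertical axes start at 0), mutants in red and controls in dark blue, with the shape giving the replicate number and the bar the mean ± SD of 4 libraries. Mutant and control points are separate for Rara and Aldh1a2 and overlap for the other 8 genes.

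Among the retinoic acid receptors, Rara showed the largest difference between genotypes. Rara (ENSMUSG00000037992, chromosome 11, 98927818 to 98974942, plus strand, GRCm38) had 996, 876, 888 and 867 scaled counts in mutants 1 to 4, against 1376, 1206, 1384 and 1104 in controls 1 to 4. Every mutant lay below the lowest control, and the mutants were close to each other, at 907 ± 60.4 scaled counts in mutants and 1268 ± 136 in controls (SD, n = 4 each). The log2 fold change was −0.48 (SE 0.10, 95% interval −0.70 to −0.25), which missed the limma threshold over all genes (adjusted p = 0.100). The exact two-sided permutation p for this gene alone was 0.0286, the smallest that 4 against 4 allow, before any adjustment. Rara passed in limma without control 4 (adjusted p = 0.0290, where 1.08% of all genes passed) and in voom with library weights (0.00787). It also passed in limma without both mutant 4 and control 4, whose library names share a number (0.0370, with 1.21% of all genes). With the number in the library names as a factor, limma gave a log2 fold change of −0.43 (adjusted p = 0.205). Among mutants 1 and 2 and controls 1 and 2 the limma adjusted p was 0.282. Its adjusted p ran from 0.00787 to 0.987 over 22 alternatives, the highest on values with no depth correction. The authors' deposited table holds 644 genes chosen in a way not given in the sources used here, and its highest adjusted p is 0.0498. Any gene listed there thus has an adjusted p below 0.05, and its entry is not separate support. The table lists 2 of the 10 retinoid genes and 2 of 38 other pathway genes. Rara stands there at −0.54 on the log2 scale (SE 0.11, adjusted p = 6.94e-05).

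Rara lies 2.79 Mb from Etv4 on chromosome 11. Of 205 tested genes within 5 Mb of Etv4, Etv4 itself left out, 30 had groups that did not overlap (14.6%, against 8.51% of the other 14768 genes). Of these, 19 were lower in mutants (9.27%, against 4.35%), Rara and Med1, a gene described below, among them. In the window 1 gene passed the limma threshold, against 43 of the other 14768. The width of this window was picked after the values were seen. The part of the position in the lower Rara values was not tested.

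Rarb, the receptor gene that retinoic acid itself induces, had 1709, 1571, 1436 and 1437 scaled counts in mutants and 1500, 1370, 1734 and 895 in controls. The mutants sat inside the range of the controls, which control 4 set at its low end. The log2 fold change of 0.20 (SE 0.18, 95% interval −0.20 to 0.60, limma adjusted p = 0.702) came to 0.0085 without control 4 and 0.19 among mutants 1 and 2 and controls 1 and 2, whose library names also share a number. The promoter repeat printed for Rarb thus belongs to a gene whose transcript level overlapped between groups. Rarg, the remaining RAR gene, averaged 1937 ± 149 scaled counts in mutants and 1875 ± 194 in controls (SD, n = 4 each), and its log2 fold change was 0.05 (95% interval −0.17 to 0.27, limma adjusted p = 0.882).

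The RXR genes encode the shared partners of RARs and of several other nuclear receptors. Rxra had 4903, 5000, 5087 and 4603 scaled counts in mutants and 4805, 4592, 4998 and 3526 in controls, and control 4 was again the lowest library. Rxrb averaged 2851 ± 91.2 scaled counts in mutants and 2764 ± 198 in controls (SD, n = 4 each). Neither passed the limma threshold: the log2 fold change was 0.14 for Rxra (95% interval −0.11 to 0.39, adjusted p = 0.652) and 0.05 for Rxrb (−0.12 to 0.21, adjusted p = 0.849). The intervals bound the difference but do not show that levels were equal.

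The ratio of 2 genes within a library does not depend on how libraries are scaled, so the family members were also set against each other. This was added after the values were seen, and 7 ratios were computed, each tested by exact two-sided permutation. The log2 ratio of Rara to Rarb was −0.78, −0.84, −0.69 and −0.73 in mutants and −0.12, −0.18, −0.33 and 0.30 in controls. The mutants lay close to each other and all below the lowest control. The log2 ratio of Rara to Rarg was −0.78, −1.19, −1.19 and −1.22 in mutants and −0.60, −0.57, −0.51 and −0.58 in controls, and mutant 1 was the mutant nearest to the controls. Both differences, −0.68 for Rara to Rarb and −0.53 for Rara to Rarg, gave an exact permutation p = 0.0286, the smallest 4 against 4 allow, and an adjusted p = 0.05 over the 7 ratios, which is not below the threshold. The ratio of Rarb to Rarg overlapped between groups (difference 0.15, exact p = 0.457), as did that of Rxra to Rxrb (0.09, exact p = 0.371). A ratio shows unequal change and not that the other gene stayed the same.

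**Figure D2:**
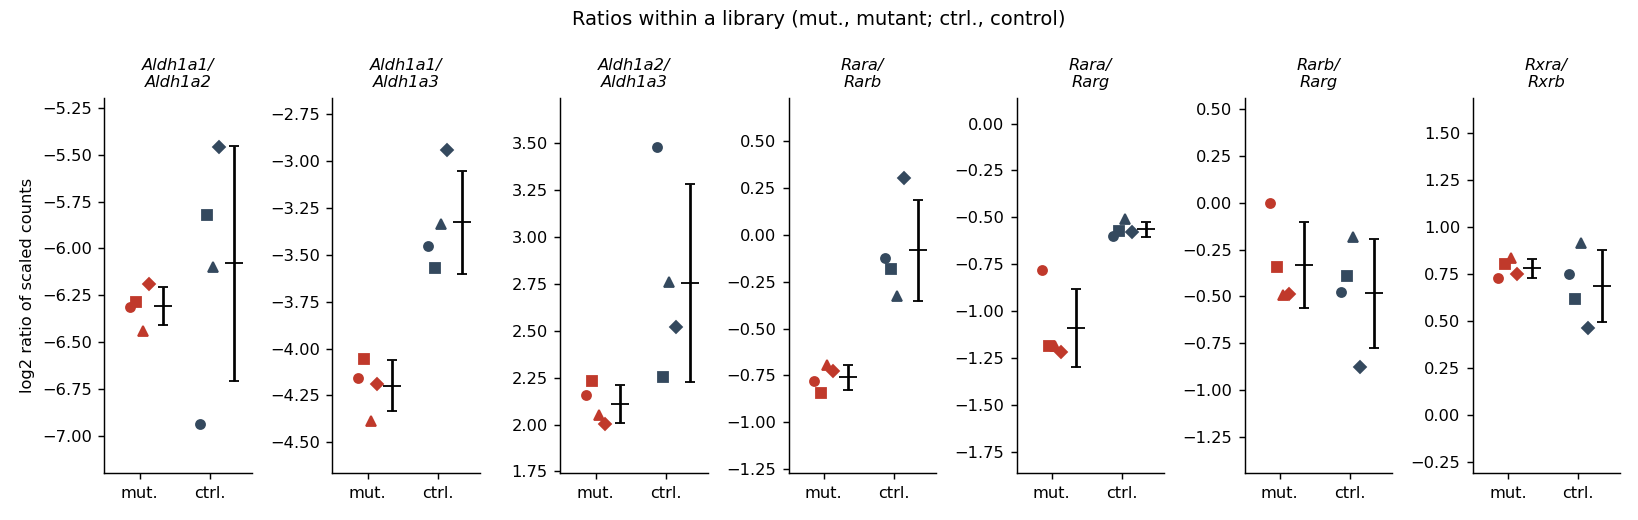
Log2 ratio of the scaled counts of 2 genes of a family in each library (each vertical axis spans 2 log2 units), mutants in red and controls in dark blue, shape by replicate number (circle 1, square 2, triangle 3, diamond 4), bar mean ± SD of 4 libraries. Mutants lie below all controls in the ratios Aldh1a1/Aldh1a3, Aldh1a2/Aldh1a3, Rara/Rarb and Rara/Rarg, and overlap with them in the other 3.

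Of the synthesis enzymes, Aldh1a2 was by far the most abundant and was lower in mutants. Aldh1a2 (ENSMUSG00000013584, chromosome 9, 71215789 to 71296243, plus strand) had 15658, 14619, 12180 and 11520 scaled counts in mutants 1 to 4, against 22772, 16255, 19457 and 15756 in controls 1 to 4. The groups did not overlap, but the highest mutant and the lowest control were 15658 and 15756. Mutants averaged 13494 ± 1964 and controls 18560 ± 3252 scaled counts (SD, n = 4 each). The log2 fold change of −0.46 (SE 0.14, 95% interval −0.77 to −0.14) did not pass limma over all genes (adjusted p = 0.233, and 0.0480 to 0.980 over 22 alternatives, passing only in voom with library weights). The exact two-sided permutation p was 0.0286, again the smallest possible. In the authors' deposited table Aldh1a2 stands at −0.53 on the log2 scale (SE 0.13, adjusted p = 0.00340). The difference was −0.35 between mutants 1 and 2 and controls 1 and 2, and −0.45 between mutant 4 and control 4. The deposited values without depth correction gave a log2 fold change of 0.015.

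Aldh1a1 encodes a second retinaldehyde dehydrogenase and was the least abundant of the family. It had 196, 186, 139 and 157 scaled counts in mutants and 185, 286, 283 and 357 in controls. Control 1 fell among the mutants and the other 3 controls lay above all of them. The log2 fold change was −0.68 (SE 0.22, 95% interval −1.17 to −0.20, limma adjusted p = 0.236). It was −0.27 between mutants 1 and 2 and controls 1 and 2, and −1.18 between mutant 4 and control 4, which holds the highest value of all. Control 4 also held the highest summed gonad (246) and sympathetic (113) markers. The highest adrenal cortex sum was in control 3 (395), and mutant 3, lowest in Aldh1a1, had a gonad sum of 197. The part of these markers in the Aldh1a1 values was not tested.

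Aldh1a3, whose enzyme makes retinoic acid in the ureteric epithelium, had 3514, 3116, 2936 and 2875 scaled counts in mutants and 2037, 3414, 2874 and 2747 in controls. The low value of control 1 apart, the groups occupied the same range, and the log2 fold change was 0.19 (SE 0.15, 95% interval −0.14 to 0.51, limma adjusted p = 0.647). Control 1 thus held the highest Aldh1a2 and the lowest Aldh1a3 of all libraries. The log2 ratio of Aldh1a2 to Aldh1a3 was 2.15, 2.23, 2.05 and 2.00 in mutants and 3.48, 2.25, 2.76 and 2.52 in controls, a difference of −0.64 with an exact p = 0.0286 (adjusted p = 0.05 over the 7 ratios). Without control 1 it was −0.40. The ratio of Aldh1a1 to Aldh1a3 differed by −0.87 with the same exact p, and the ratio of Aldh1a1 to Aldh1a2 overlapped (−0.23, exact p = 0.514).

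Cyp26b1, which clears retinoic acid, varied among mutants from above to below the range of the controls. It had 3568, 2544, 2301 and 1527 scaled counts in mutants and 2862, 2753, 3000 and 2087 in controls, so that mutant 1 was above and mutant 4 below every control. The log2 fold change was −0.16 (SE 0.23, 95% interval −0.66 to 0.35, limma adjusted p = 0.830), and it was 0.10 between mutants 1 and 2 and controls 1 and 2 and −0.45 between mutant 4 and control 4. Crabp2, the nuclear carrier of retinoic acid, had 2011, 1801, 1378 and 1419 scaled counts in mutants and 2364, 1754, 2184 and 1852 in controls. Mutants 3 and 4 lay below every control and mutants 1 and 2 among the controls, with a log2 fold change of −0.31 (SE 0.15, 95% interval −0.64 to 0.014, limma adjusted p = 0.437).

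Levels of different genes were compared as scaled counts per kilobase of the longest annotated transcript. Aldh1a2 was highest, at 5960 ± 867 per kilobase in mutants and 8198 ± 1436 in controls (SD, n = 4 each). Crabp2 came next at 1775 ± 328 per kilobase in mutants and 2189 ± 306 in controls, and neither gene overlapped its neighbours in the order. Rxrb, Rxra, Aldh1a3, Rarg, Cyp26b1, Rarb and Rara followed in the order of the control means, from 1052 for Rxrb to 375 for Rara. Each of these overlapped the next in controls, so neighbours in that order were not separated there, although genes farther apart, such as Rxrb and Rara, were. In mutants Rxrb did not overlap Rxra, nor Aldh1a3 Rarg, and Rara at 268 ± 17.8 per kilobase did not overlap Rarb at 495 ± 41.9, whereas in controls Rara at 375 ± 40.3 overlapped Rarb at 442 ± 114. Aldh1a1 was lowest, at 71.9 ± 11.1 per kilobase in mutants and 118 ± 29.9 in controls. The order between them depends on the length used. With the mean length of all annotated transcripts, Rxra lay above Rxrb in mutants without overlap (2066.6 to 2283.9 against 1905.4 to 2060.5 per kilobase). Crabp2 then overlapped Rxra in both groups, while Aldh1a2 stayed highest and Aldh1a1 lowest.

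**Figure D3:**
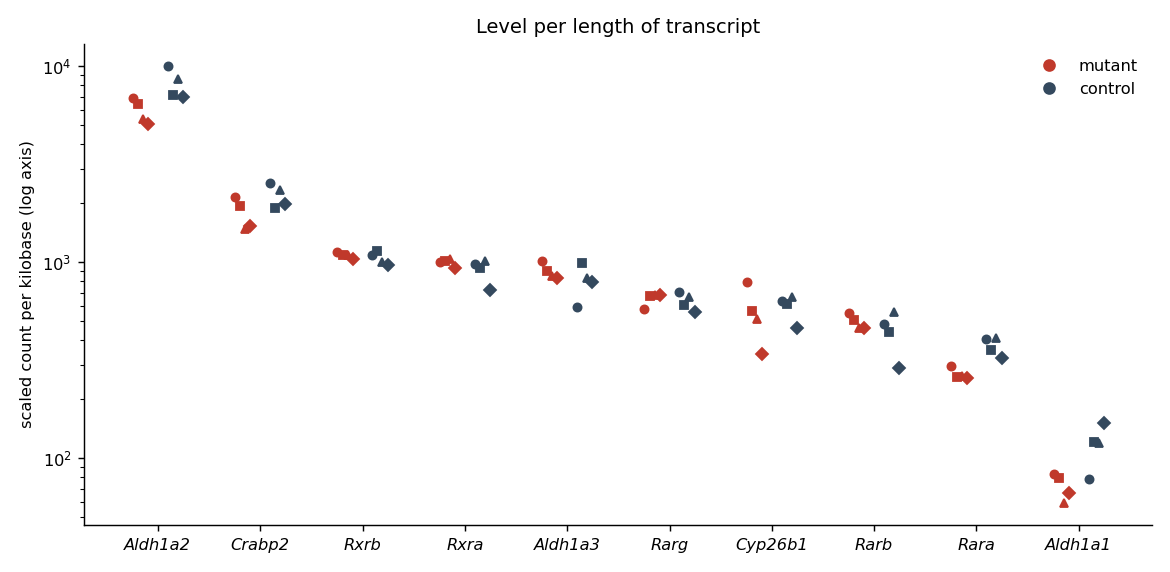
Scaled counts per kilobase of the longest transcript (log axis) for each retinoid gene in every library, genes ordered by the control mean, mutants in red left of controls in dark blue, shape by replicate number (circle 1, square 2, triangle 3, diamond 4). Aldh1a2 stands above and Aldh1a1 below the rest in both groups.

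As shares of their families on that scale, Rara made up 18.9 ± 1.22% of RAR transcripts in mutants and 25.9 ± 1.29% in controls, with mutants between 18.0% and 20.7% and controls between 25.0% and 27.8%. Rarg held the largest RAR share, 46.2 ± 3.76% in mutants and 44.0 ± 2.80% in controls. Aldh1a2 made up 85.9 ± 0.802% of ALDH1A transcripts in mutants and 89.6 ± 3.11% in controls, and Aldh1a3 13.1 ± 0.801% and 9.08 ± 2.72% (SD, n = 4 each). The shares depend on transcript length: with the mean length of all annotated transcripts, Aldh1a3 held 25.9 ± 1.35% in mutants and 18.6 ± 5.04% in controls, and Rara 13.1 ± 1.01% and 18.4 ± 0.847%. They are descriptions and were not tested beyond the ratios above.

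The rest of the pathway was read from a list of 38 genes, of which 37 were in the table and 30 were abundant enough to test. With limma 0 of the 30 passed over all genes, 5 had an unadjusted p below 0.05 (4 lower and 1 higher in mutants), and 5 did not overlap between groups (3 lower and 2 higher), where 12.0% of all genes had such a p and 8.60% did not overlap. By limma voom 1 of the 30 passed (0.461% of all genes), and by voom with library weights 3 did (3.83% of all genes). The median log2 fold change of the 30 was −0.01.

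Upstream of the ALDH1A enzymes, Rdh10, which makes retinaldehyde from retinol, was lower in every mutant than in any control. It had 2993, 2987, 1813 and 1835 scaled counts in mutants and 4733, 3742, 3919 and 3213 in controls, and its log2 fold change was −0.73 (SE 0.19, 95% interval −1.16 to −0.29). Limma did not call it over all genes (adjusted p = 0.163), and it passed in 2 of 22 alternatives, among them voom with library weights (adjusted p = 0.0432, in a range of 0.0432 to 0.699 over the 22). The authors' deposited table lists it at −0.78 (SE 0.18, adjusted p = 0.00131). Rdh5, another retinol dehydrogenase gene, was low, at 41.2, 53.2, 44.7 and 41.4 scaled counts in mutants and at most 36.9 in controls. Its groups did not overlap and it did not pass (log2 fold change 0.64, limma SE 0.30, adjusted p = 0.443). For the retinol importer gene Stra6 the log2 fold change was −0.26 (limma, SE 0.26, adjusted p = 0.734), and it ranged from 1229 to 3068 scaled counts in mutants and from 1918 to 2987 in controls. Rbp4, the retinol carrier of blood, had 317 scaled counts in mutant 2 and at most 38.2 in the other 7 libraries. Mutant 2 also held 1476 scaled counts of summed skeletal muscle markers, against at most 207 elsewhere, and the part of this in the Rbp4 value was not tested.

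At the receptor end, Med1, which encodes a coactivator subunit that nuclear receptors recruit, had the smallest p of the pathway list. It had 879, 750, 880 and 625 scaled counts in mutants and 2057, 1353, 1763 and 1242 in controls, with no overlap. The log2 fold change was −1.02 (SE 0.18, 95% interval −1.41 to −0.62), just outside the limma threshold (adjusted p = 0.0580, in a range of 0.00376 to 0.626 over 22 alternatives). It passed in 5 of them, among them limma voom (0.0382) and the fit without control 4 (0.0194). The authors' deposited table lists Med1 at −1.14 (SE 0.17, adjusted p = 3.78e-09). Med1 lies 3.58 Mb from Etv4 on chromosome 11, on the same side as Rara, and the part of that position was not tested. For Nrip1, a corepressor gene, the log2 fold change was 0.20 (limma, SE 0.10, adjusted p = 0.468), and the RXR relative Rxrg was at 37.5 to 58.4 scaled counts in mutants and 37.1 to 96.7 in controls.

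Of the 10 tested genes known to respond to retinoic acid, 9 overlapped between groups, 5 had negative and 5 positive log2 fold changes, and 3 had an unadjusted limma p below 0.05, Ret and Nr2f2 lower and Tgm2 higher in mutants. Among all genes tested, 8.60% did not overlap and 12.0% had such a p. Ret, the branching receptor that also marks ureteric tips, had 3435, 3305, 2275 and 1573 scaled counts in mutants and 4008, 5584, 4316 and 3520 in controls, without overlap (log2 fold change −0.77, limma SE 0.24, adjusted p = 0.237). For Nr2f2, encoding the orphan receptor COUP-TFII, the log2 fold change was −0.83 (limma, SE 0.23, adjusted p = 0.178), with 3119 to 5608 scaled counts in mutants and 5342 to 10345 in controls. Tgm2, a transglutaminase gene named after its values were seen, had 2262, 1806, 2591 and 3456 scaled counts in mutants and 1984, 1687, 1914 and 1699 in controls (log2 fold change 0.44, limma SE 0.17, adjusted p = 0.344). Cyp26a1, whose promoter repeat is printed above, was scarce at 10.6, 10.6, 15.7 and 28.1 scaled counts in mutants and 3.68, 2.37, 8.39 and 19.4 in controls. Its log2 fold change of 1.11 (limma, SE 0.70, adjusted p = 0.566) spanned a 95% interval of −0.45 to 2.67, so the counts settle no direction for it.

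**Figure D4:**
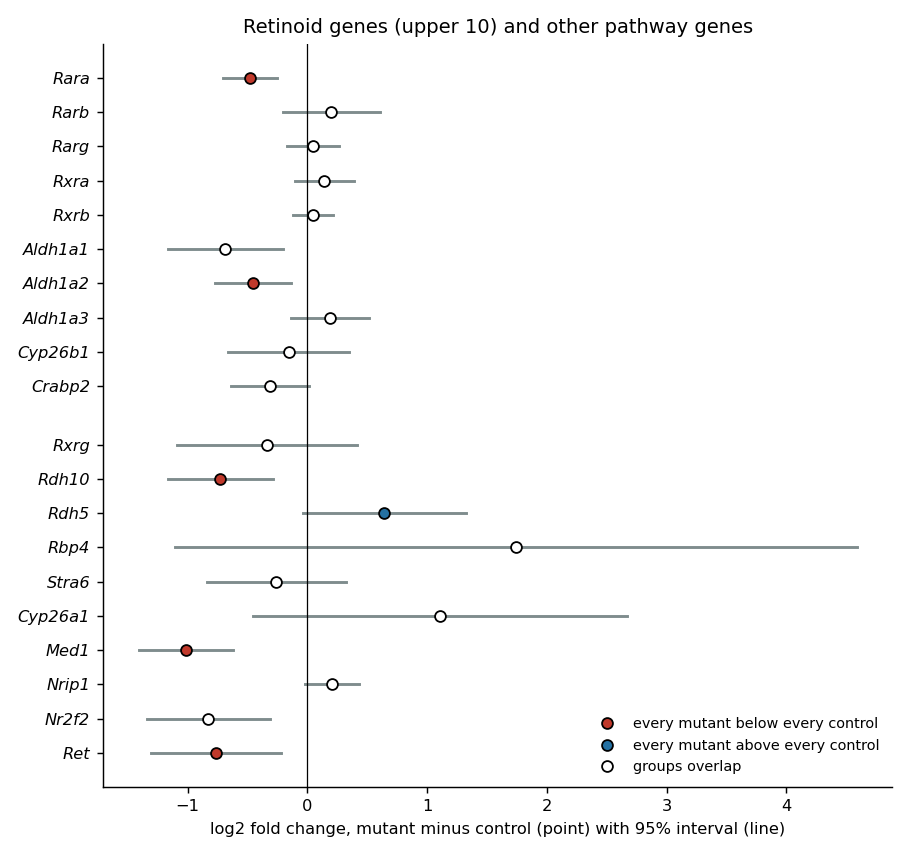
Log2 fold change, mutant minus control, with its 95% interval for the 10 retinoid genes (upper block) and 10 other pathway genes (lower block). Filled points mark genes whose 4 mutant and 4 control libraries do not overlap, red where mutants are lower (Rara, Aldh1a2, Rdh10, Med1, Ret) and blue where they are higher (Rdh5); intervals are for single genes, and 0 of the 20 genes passed limma's threshold over all genes.

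The libraries also differed in their makeup. Summed nephron progenitor markers were 3666 to 9452 scaled counts in mutants and 15886 to 30297 in controls, and summed ureteric tip markers 4752 to 9279 and 11283 to 15877, both lower in mutants without overlap. Summed markers of early nephrons were 15620 to 18187 scaled counts in mutants and 10936 to 14393 in controls, those of endothelium 18438 to 21093 and 13143 to 17274, and those of macrophages 2132 to 2527 and 1227 to 1968. These 3 sums were higher in mutants without overlap. The sum of 9 stromal markers overlapped, at 139086 to 153975 scaled counts in mutants and 80434 to 172018 in controls, and 2 of the 9 were higher in mutants at an unadjusted limma p below 0.05, where 12.0% of all genes had such a p in either direction. Most of this sum was collagen RNA, so the other stromal markers weigh little in it. Col1a1 had 79568 to 84311 scaled counts in mutants and 33734 to 110280 in controls. Col3a1 had 33490 to 46801 in mutants and 29212 to 33343 in controls. Foxd1, which marks the cortical stroma, had 5400, 5069, 4742 and 4640 scaled counts in mutants and 7532, 4626, 5493 and 3792 in controls. Control 1 was highest and control 4 lowest among controls for Foxd1, as they were for Aldh1a2. Mesothelial markers summed to 971 to 2759 in mutants and 835 to 1821 in controls. Most of each sum was Krt19, at 794 to 2358 scaled counts in mutants and 726 to 1611 in controls.

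Mutants 3 and 4 held the 2 lowest values of Aldh1a2 and of Crabp2 among all 8 libraries, and mutant 4 the lowest of Cyp26b1. These 2 libraries also had the highest summed proximal tubule markers, 7360 and 13908 scaled counts, against 2804 and 2827 in mutants 1 and 2 and 1457 to 4968 in controls, and the highest summed podocyte markers, 10238 and 13535, against 5623 and 5139 in mutants 1 and 2 and 3206 to 6518 in controls. Control 4 had the highest proximal tubule and podocyte sums among controls. It also had the lowest Aldh1a2, Cyp26b1, Rara, Rarb, Rarg, Rxra and Rxrb among controls, and the highest Aldh1a1 of all libraries. Its stromal sum and Col1a1 were the lowest of all. This was also the shallowest library, with 18.4% of its counts from Lars2. The parts of tissue makeup and of library depth in these values were not tested.

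**Figure D5:**
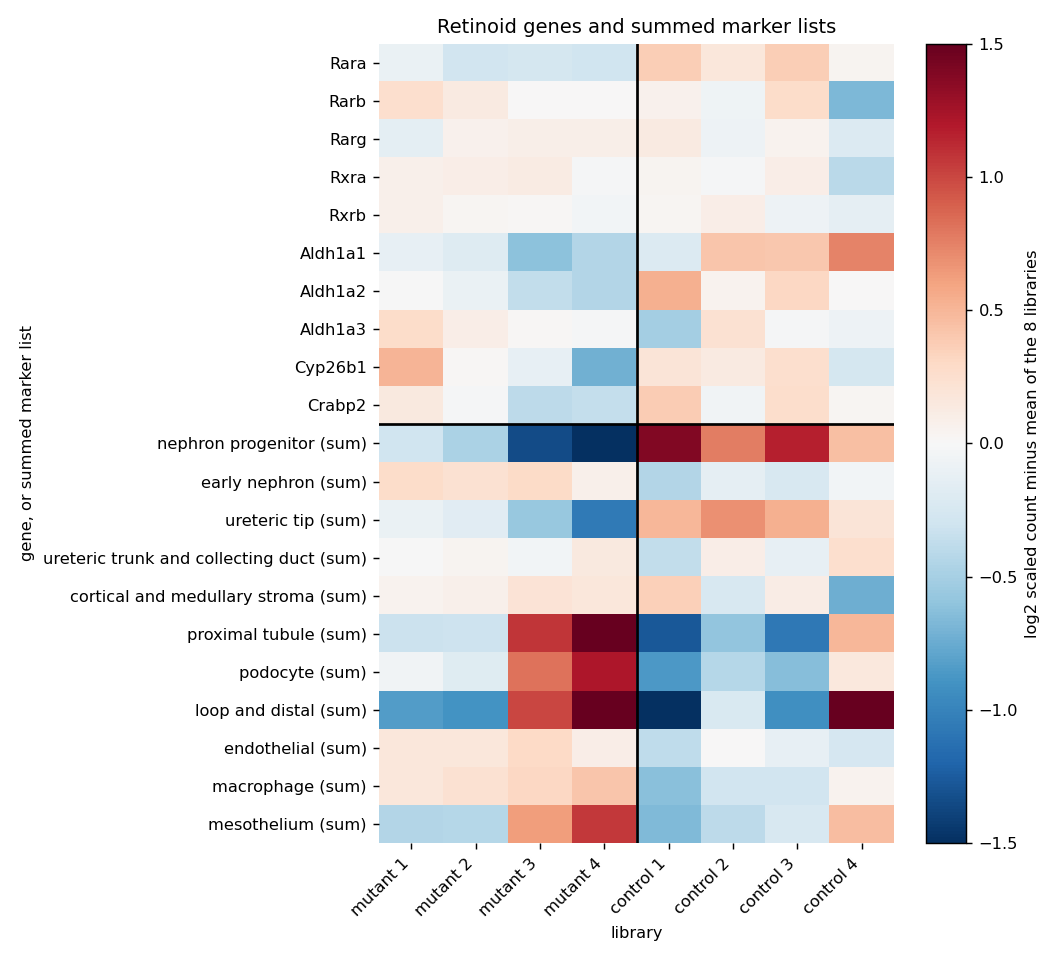
Log2 scaled count minus its mean over the 8 libraries for the retinoid genes (above the line) and for summed marker lists (below), mutants left and controls right of the vertical line; colours stop at −1.5 and 1.5. Rara and Aldh1a2 are higher in all 4 controls than in any mutant, Rarb and Rxra are lowest in control 4, and mutants 3 and 4 carry the highest proximal tubule and podocyte sums.

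Over the 8 libraries, Aldh1a2 varied most closely with Crabp2 among the retinoid genes (Pearson r of log2 scaled counts 0.951) and next with Rara (0.911), while Rarb varied most closely with Rxra (0.938). These r values span both genotypes, share size factors and are given as descriptions. Among all other named genes tested, Pcbp4 (r = 0.990) and Crispld1 (0.988) were among the 3 closest to Rara. The closest to Aldh1a2 were Rap2b (0.982), Slc16a1 (0.979) and Tcf7l1 (0.970), and Rap2b was also among the 3 closest to Crabp2 (0.979). Those nearest to Rarb, at 0.969 to 0.980, were Zfp608, Eif2ak1 and Cep68.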

How the data were processed

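Per the labels' protocols, paired-end reads were taken from polyA libraries of kidney pairs. The submitters' processing notes name fastp 0.23.2, kallisto 0.46.0, DESeq2 1.40.2 and build mm10, with no roles or settings. The deposited log2 table is named as normalized, but its values are log2(estimated count + 1) and carry no depth correction. Whole counts within 1e-06 came from 73.4% of all values and from 67.8% of values above 0, and library totals differ. The authors' second table gives, per the file headers, a mean normalized signal, log2 fold changes and their standard errors, a score (the test statistic) and p-values for 644 genes.

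Recovered counts were scaled by size factors of the median-of-ratios kind (0.361 in control 4, 1.07 to 1.27 elsewhere). Genes reaching 10 scaled counts in 4 or more libraries were tested on log2(scaled count + 1) with limma 3.58.1 (lmFit, eBayes with trend, two-sided) in R 4.3.3, genotype as the single term, p-values adjusted by Benjamini-Hochberg over 14974 genes, and called below 0.05. Fold changes on that scale understate the change of low genes. P-values set genotype against the spread within groups, with no term for litter or sex. Groups and numbers come from the titles. The members and lists were chosen with earlier results of these data known. All 10 members are named; other pathway genes named are the 2 with the smallest p in each role, since 0 passed, and others are named for their values. Foxd1, Foxl2 and Ddx3y are named as markers. Positions and transcript lengths are from GENCODE M21 on GRCm38, the assembly of mm10. Alternatives covered filters, pseudocount, scaling, variance trend, voom, blocks and each library left out. The steps were tested on simulated data. Figures used matplotlib 3.10.9. A gene that the rule on likeness also names is not reported here.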

Additional observations from a re-analysis of the deposited data

Results flagged for a closer look

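Of the 20 sets of 4 libraries checked (10 genes in each genotype), 1 held a library far from the rest, and chance alone marks about 1 in 20. Rarg in mutant 1 had 1714 scaled counts, against 1994 to 2022 in the other 3 mutants, and that gap makes up 0.915 of the whole range of the mutants, past the Dixon limit for 4 libraries.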

How the results depend on the processing

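Of 220 values of the 10 retinoid genes under 22 alternatives, 209 kept their direction. Those that turned were, without depth correction (median of all genes 0.48), Aldh1a2 (0.015), Cyp26b1 (0.31) and Crabp2 (0.16), and among other genes Rxrg (0.12) and Stra6 (0.21); in voom with library weights, Rarb (−0.0097) and Rarg (−0.022); among mutants 1 and 2 and controls 1 and 2, Rarg (−0.067), Rxrb (−0.0071), Cyp26b1 (0.10) and Stra6 (0.068); and without mutant 4 and control 4, Rarg (−0.029). With single libraries left out, Rarg ran from −0.0097 to 0.10, Cyp26b1 from −0.35 to 0.056 and Stra6 from −0.44 to 7.18e-05. The retinoid genes past the threshold numbered 2 in voom with library weights, 1 without mutant 4 and control 4, and 0 to 1 with single libraries left out (1 without control 4). Other pathway genes past it numbered 1 in voom, 3 with library weights, 2 with the replicate block (Med1 and Rdh10, adjusted p = 0.00657 and 0.0443), 1 without mutant 4 and control 4, and 0 to 1 with single libraries left out. Over all genes 45 passed, against 11 by total count scaling (median of all genes 0.14), 80 without depth correction, 28 without the variance trend, 69 in voom, 574 with library weights, 133 with the replicate block, 17 among mutants 1 and 2 and controls 1 and 2, 179 without mutant 4 and control 4, and 2 to 161 with single libraries left out. The cause was not tested. The replicate block joined libraries by the replicate number of their titles (correlations of deviations 0.27, 0.098, −0.13 and 0.35 for numbers 1 to 4). Mutants 1 and 2 and controls 1 and 2 also share a number in their library names, as do mutant 4 and control 4. Mutant 3 and control 3 do not, so the block joined them by title alone. Whether a shared number marks a litter was not tested. Per-length levels of 9 genes moved with mean in place of longest transcript lengths. The shallow control 4 carries the largest counting error.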

Other observations

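Several retinoid genes known from other tissues were scarce in these kidneys. The highest scaled count in any library was 16.7 for Bco1, which cleaves beta-carotene to retinaldehyde, 15.8 for Rbp2, an intestinal retinol-binding protein gene, 10.8 for Rdh1, 12.8 for Rdh16 and 2.45 for Cyp26c1, a hydroxylase gene of the head and inner ear. Hoxb1 (15.7 at most) and Cdx1 (18.5 at most), both direct targets of retinoic acid in the early embryo, also fell short of the abundance needed for a test. These 7 genes were in the table and were not tested.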
